A study of Chlamydomonas reinhardtii with 45 samples.

Results

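The inorganic carbon transporter and channel genes described here are 8 genes of *Chlamydomonas reinhardtii*, a unicellular green alga, and their mRNAs were followed over a day in populations that had been acclimated to low, moderate, or high light. The genes were chosen by the symbol that the deposited table gives them. *HLA3*, *LCI1*, *NAR1B*, *CCP1*, and *CCP2* were taken by name, and *BST1*, *BST2*, and *BST3* were every gene whose symbol is BST followed by a number, so that the group holds 8 of the 17609 genes in the table. Their identifiers are Cre02.g097800 (*HLA3*), Cre03.g162800 (*LCI1*), Cre06.g309000 (*NAR1B*), Cre04.g223300 (*CCP1*), Cre04.g222750 (*CCP2*), Cre16.g662600 (*BST1*), Cre16.g663400 (*BST2*), and Cre16.g663450 (*BST3*). All 8 passed the filter on low values that is described with the comparisons. The 3 populations were grown in air on a minimal medium, with a light period of 12 h at 28 °C and a dark period of 12 h at 18 °C, and received 50 (LL), 200 (ML), or 1000 (HL) µmol photons m−2 s−1 during the day. Samples came from 5 timepoints, named by hours before or after lights-on as −2, +2, +6, +10, and −10, with 3 libraries per population and timepoint, and hence 45 libraries in 15 groups. The 3 libraries of a group are independent cultures. The paper describes time courses in the order given, so libraries of different timepoints may share a culture and are not independent. The timepoints −2 and −10 lie in the dark, and −10 is 2 h after the lights went off. All libraries came from strain CC-5390, a *cw15* strain rescued with *ARG7* and labelled as wild type, so the results describe 1 strain, and the LL cultures had first been kept in ML before they were moved to LL.

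Carbon dioxide diffuses slowly in water, and *Chlamydomonas* raises its concentration around Rubisco with a CO2 concentrating mechanism, which moves bicarbonate across the plasma membrane, the chloroplast envelope, and the thylakoid membrane and turns it back to CO2 in the pyrenoid. HLA3, an ABC transporter, and LCI1 act in uptake at the plasma membrane, NAR1B (also named LCIA, and listed as a formate/nitrite transporter) is a channel of the chloroplast envelope, and BST1, BST2, and BST3 are bestrophin-like channels of the thylakoid membrane. CCP1 and CCP2 are near-identical proteins of the mitochondrial carrier family that were first described from the chloroplast envelope, and most of these genes are known for mRNAs that accumulate when CO2 is scarce. All 8 genes were matched to RefSeq by their identifiers (assembly version 5.5, used only for names and order). In that order, *BST2* and *BST3* are direct neighbors with 0 genes between them, *BST1* is separated from *BST2* by 17 genes, and *CCP1* and *CCP2* are separated by 10. *CCP2* and *CCP1* each lie beside a gene of the LCIB family, *LCID1* and *LCIE1*, with 0 genes between.

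The values are FPKM as deposited, that is, mapped fragments scaled to the length of the transcript and to the size of the library. They are scaled per length, so that levels of different genes can be set side by side on the FPKM scale. The table holds no counts, and the depth of each library relative to the median library was estimated from the steps between low values. One library, LL replicate 1 at −2, had a relative depth of 0.176, and the other libraries lay between 0.609 and 1.43. Fold changes and ratios that involve that library are followed by values without it, and its effect on the correlations is given as a maximum. Genes detected above 0 numbered 13849 to 15802 per library. As a measure of cells in division, 9 of 10 listed division markers were found by symbol, with 1 of their values at 0 (LL at −2) over all libraries. Their summed FPKM is given where mRNAs of the group were called between populations. Because whole cultures were sequenced, a change in the share of cells at a stage and a change in the mRNA per cell cannot be told apart.

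*HLA3* had the highest mean of the 8 mRNAs at every timepoint of the light period in each population. At +2, its FPKM was 3817, 3173, and 2646 in the 3 LL libraries, 3222, 2546, and 2588 in the ML libraries, and 3699.6, 3657, and 3487 in the HL libraries. At −10, the values were 4.74, 5.31, and 5.99 in LL, 7.64, 5.13, and 8.07 in ML, and 6.42, 6.55, and 5.61 in HL. No library at −10 came near any library at +2, and the group means at +2 were 601-fold (LL), 401-fold (ML), and 584-fold (HL) those at −10. *LCI1*, whose product sits in the same membrane, had FPKM of 3057, 3271, and 2430.03 in LL, 2139.99, 1640.4, and 1991 in ML, and 2599, 2749.6, and 2313 in HL at +2. Its lowest group means were also at −10, at 2.81 ± 0.537 in LL, 3.39 ± 1.47 in ML, and 3.27 ± 0.796 in HL (SD, n = 3 libraries each). Both mRNAs of the plasma membrane step therefore had their highest mean at +2 and their lowest at −10 in every population. For *LCI1* in HL, the means at +2 and +6 were close, 2554 and 2513 FPKM, with ranges that overlapped. The timepoints +2 and +6 were not tested against each other.

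*NAR1B* and the *CCP* pair peaked at the same timepoint. For *NAR1B*, FPKM at +2 was 2052, 1829, and 1567 in LL, 1743, 1495, and 1602 in ML, and 1366, 1297, and 1268 in HL, and the means at −10 were 1.71 ± 0.213, 2.09 ± 0.791, and 2.16 ± 0.363 in the same order of populations (SD, n = 3 libraries each). *CCP1* had FPKM of 2695, 2330.4, and 1605 in LL, 2183, 1687, and 1689 in ML, and 2674, 2679.7, and 2457 in HL at +2. *CCP2* was lower than *CCP1* at that timepoint in every library, with FPKM of 422, 349.7, and 311 in LL, 485, 413, and 475 in ML, and 359, 333, and 375 in HL. At −10 the *CCP2* mean was 0.651 in LL, 0.805 in ML, and 0.670 in HL, below the pseudocount of 1 used in the comparisons.

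The thylakoid bestrophin-like channels did not share 1 pattern. *BST1* had its highest mean at +2, with FPKM of 129, 134, and 150.4 in LL, 171, 171, and 188 in ML, and 124, 138, and 144 in HL, whereas *BST2* and *BST3* had their highest means at −2, before the light came on. At −2, *BST2* was at 161, 131, and 147 in LL, 143, 136, and 139.8 in ML, and 132, 133, and 139 in HL, and *BST3* was at 243, 195, and 196 in LL, 173, 147, and 166 in ML, and 174, 148, and 162 in HL. The pair was therefore the most abundant of the group at the end of the night: in each population the 2 highest means at −2 were those of *BST3* and *BST2*, although in LL the ranges of *BST2* and *HLA3* overlapped. All 3 channels had their lowest mean at −10, where *BST1* was at 0.217 ± 0.0461 in LL, 0.296 ± 0.158 in ML, and 0.254 ± 0.0443 in HL (SD, n = 3 libraries each). Between the dark timepoints −10 and −2, *BST1* differed most: its mean at −2 was 224-fold (LL), 109-fold (ML), and 179-fold (HL) that at −10. The same ratio was 14.7, 22.2, and 30.7 for *BST2* and 14.1, 31.0, and 20.8 for *BST3* in LL, ML, and HL. In ML and HL, the other 5 mRNAs had ratios between 1.09 (*CCP1* in HL) and 3.59 (*CCP2* in HL), below those of all 3 channels. In LL that order did not hold, since *NAR1B* was at 32.9 and *HLA3* at 18.9, above *BST2* and *BST3*, while *LCI1*, *CCP2*, and *CCP1* were at 7.29, 6.20, and 2.03. Without the LL library of lowest depth, the LL ratios were 200.1 (*BST1*), 19.0 (*NAR1B*), 14.003 (*BST2*), 13.1 (*HLA3*), 13.1 (*BST3*), 3.83 (*LCI1*), 2.73 (*CCP2*), and 1.38 (*CCP1*). These ratios between the dark timepoints are descriptions of group means and were not tested. In the order of the paper's time course, −10 followed −2, so the ratios do not span 1 night.

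**Figure D1:**
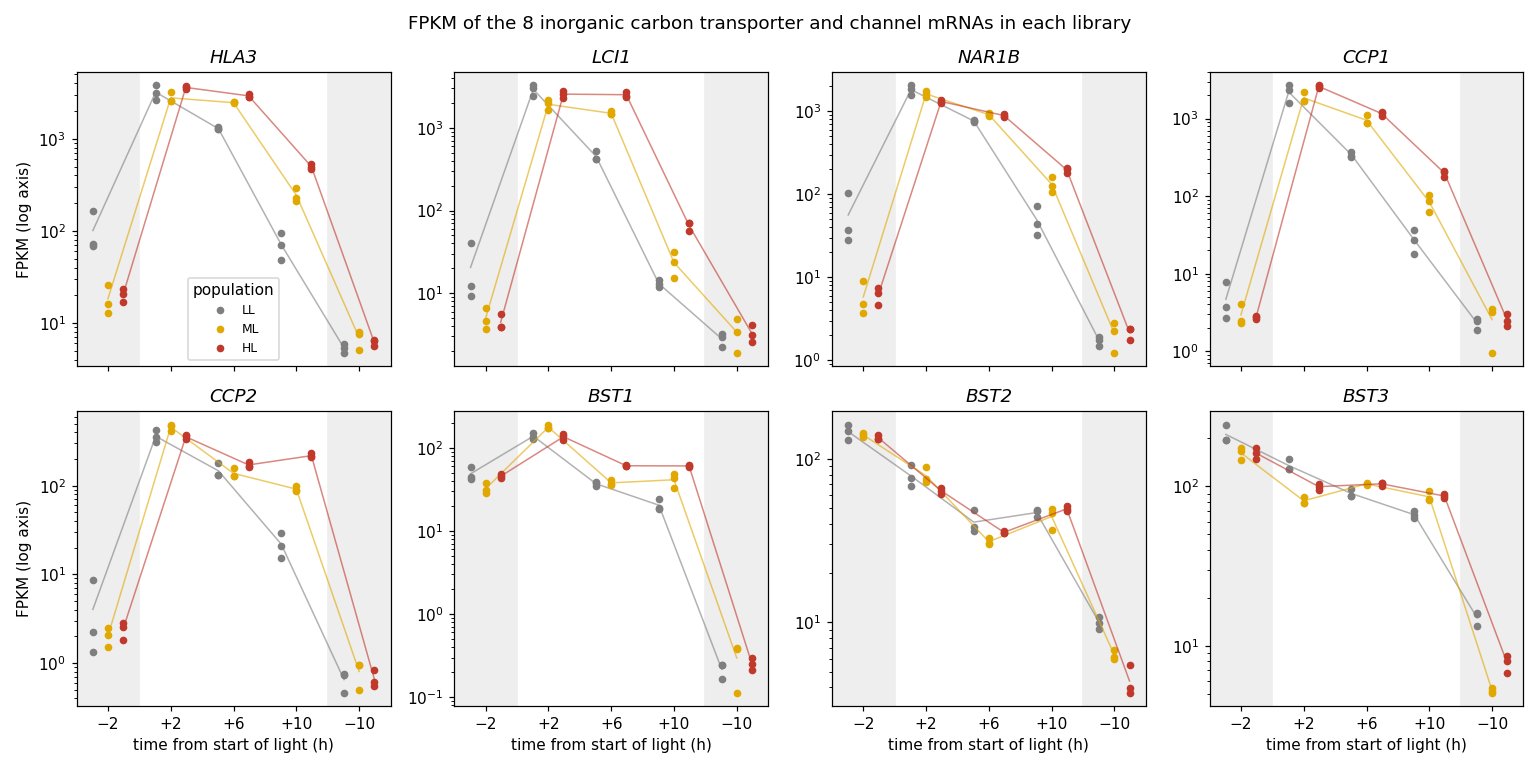
FPKM of each of the 8 mRNAs in every library (points) and the group means (lines), by hours from the start of the light period, with LL in grey, ML in yellow, and HL in red. The FPKM axis is logarithmic and differs between panels, and the shaded timepoints lie in the dark. Means of 6 mRNAs are highest at +2, those of *BST2* and *BST3* at −2, and all are lowest at −10.

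The order of levels within a population changed over the day. At +2 in ML the order of means was *HLA3*, *LCI1*, *CCP1*, *NAR1B*, *CCP2*, *BST1*, *BST3*, and *BST2*, and the ranges of *LCI1* and *CCP1*, of *CCP1* and *NAR1B*, and of *BST3* and *BST2* overlapped. At +10 in ML, *HLA3* was still highest at 244 ± 42.1, followed by *NAR1B* at 132 ± 28.7 (SD, n = 3 libraries each), and *CCP2*, *BST3*, and *CCP1* followed with ranges that overlapped from each gene to the next. *LCI1*, the second in the order at +2 in ML, was the last at +10, at 23.5 ± 8.02. In HL at +10 the order was *HLA3*, *CCP2*, *CCP1*, *NAR1B*, *BST3*, *LCI1*, *BST1*, and *BST2*, and the ranges of *CCP2* and *CCP1*, of *CCP1* and *NAR1B*, and of *LCI1* and *BST1* overlapped. In LL at +10 the first 4 means, those of *HLA3*, *BST3*, *NAR1B*, and *BST2*, lay between 46.9 and 71.0 with ranges that overlapped from each to the next.

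For the comparisons, 1 limma model on the log2(FPKM + 1) scale took in the 45 libraries together. It covered 14602 genes, those that reached 1 FPKM in 3 or more libraries. A gene counted as called if it differed by more than 1 on the log2 scale, in either direction, with a Benjamini-Hochberg adjusted p under 0.01 over the genes tested in that comparison. Errors of log2 fold changes are standard errors from that model, in which libraries were not paired by culture. Shares of all genes called count both directions. For counts of mRNAs with an unadjusted p below 0.05, the matching share of all genes was not computed. The share of genes called, given beside such counts, follows a stricter rule and is not their baseline. For mRNAs near or below 1 FPKM, the pseudocount of 1 shrinks the log2 fold change.

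The first comparison asked how the mRNAs differed across the start of the light period. At +2 against −2, 6 of the 8 mRNAs rose in LL, 6 in ML, and 6 in HL, and *BST2* fell in HL. Of all genes tested, 32.2% were called in LL, 38.9% in ML, and 35.0% in HL in either direction, and 2551, 2947, and 2871 genes were called higher. The median log2 fold change of the 8 mRNAs was 5.15, 7.24, and 7.07, against 0.04, 0.01, and 0.00 for all genes. The mRNAs that rose were the same in each population: *HLA3*, *LCI1*, *NAR1B*, *CCP1*, *CCP2*, and *BST1*. *CCP1* had the largest log2 fold change of the group in each population, 8.67 ± 0.26 in LL, 8.89 ± 0.26 in ML, and 9.45 ± 0.26 in HL (adjusted p of at most 4.53e-25). *LCI1* rose by 7.35 ± 0.29, 8.35 ± 0.29, and 8.88 ± 0.29 on the log2 scale in LL, ML, and HL. *BST1* rose least, by 1.495 ± 0.12, 2.43 ± 0.12, and 1.56 ± 0.12. Without the LL library of lowest depth, the log2 fold changes in LL were 9.03 (*CCP1*), 7.95 (*LCI1*), 7.03 (*CCP2*), 5.76 (*NAR1B*), 5.49 (*HLA3*), 1.64 (*BST1*), −0.83 (*BST2*), and −0.54 (*BST3*), their median was 5.63, and the calls were the same.

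*BST2* and *BST3*, in contrast, had negative log2 fold changes across the start of the light period in all populations. For *BST2*, FPKM at +2 was 61.2, 63.4, and 66.7 in HL, against 132, 133, and 139 at −2, and its log2 fold change of −1.07 ± 0.11 passed the call (adjusted p = 1.92e-10). Its log2 fold changes of −0.90 ± 0.11 in LL and −0.83 ± 0.11 in ML passed the threshold on adjusted p but not that on fold change. The same held for *BST3*, at −0.64 ± 0.09 in LL, −0.99 ± 0.09 in ML, and −0.69 ± 0.09 in HL. For *BST1* and *BST2*, which differ in direction, no library at +2 overlapped with one at −2 of the same population. The calls near the fold threshold moved with the scaling: with quantile normalization, *BST1* in HL was not called (0.97), and *BST2* and *BST3* were called in every population. Without replicate number 3, *BST2* in LL was called (−1.001), and without replicate number 2, *BST3* in ML was (−1.04).

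Across the end of the light period, at −10 against +10, all 8 mRNAs fell in LL, in ML, and in HL. There, 27.9%, 43.3%, and 36.3% of all genes tested were called in either direction, and 2656, 3836, and 3330 genes were called lower. The median log2 fold change of the 8 mRNAs was −3.25 in LL, −4.80 in ML, and −5.72 in HL, against −0.11, −0.13, and −0.05 for all genes. *CCP2* had the largest fall in HL, where its FPKM was 0.843, 0.557, and 0.609 at −10, against 209, 231, and 214 at +10 (log2 fold change −7.04 ± 0.26, adjusted p = 3.18e-22). *BST1* reached 0.254, 0.298, and 0.209 at −10 in HL, against 60.6, 58.8, and 61.8 at +10, and had log2 fold changes of −4.13 ± 0.12 in LL, −5.02 ± 0.12 in ML, and −5.61 ± 0.12 in HL. *LCI1*, which was already low at +10, had the smallest fall in LL, −1.88 ± 0.29, and in ML, −2.49 ± 0.29. For 7 of the 8 mRNAs the fall was largest in HL and smallest in LL, and for *BST3* it was largest in ML, at −3.80 ± 0.09. The differences between populations in this comparison were not tested as such.

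**Figure D2:**
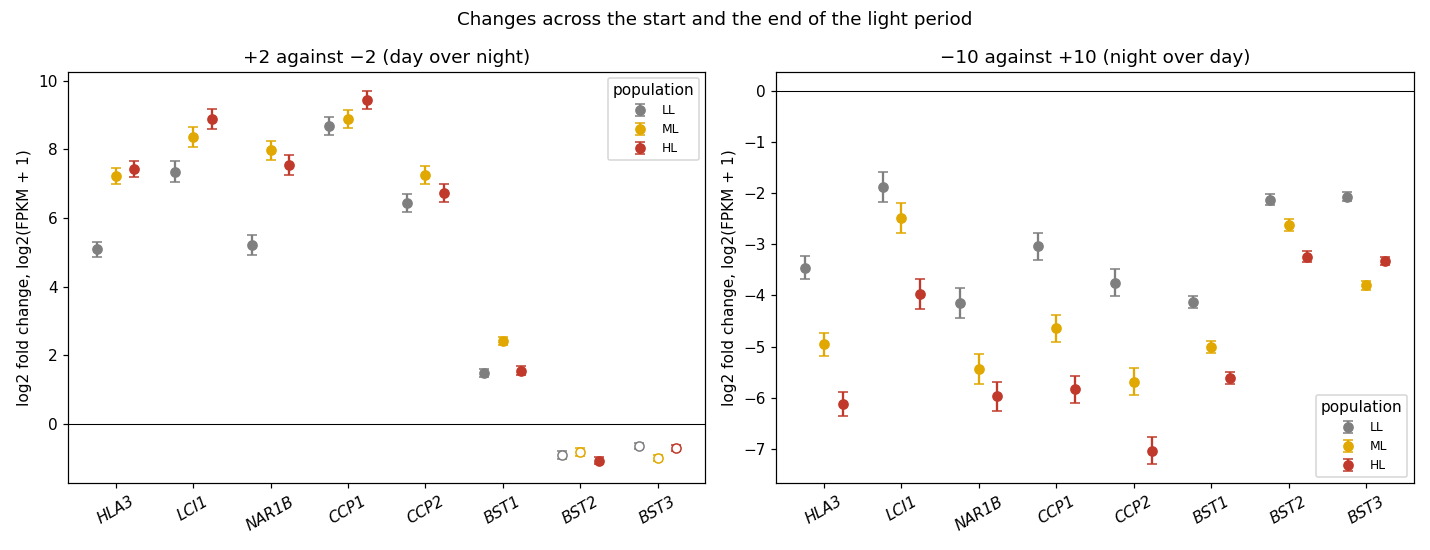
Log2 fold changes of the 8 mRNAs across the start (left, +2 against −2) and the end (right, −10 against +10) of the light period in LL (grey), ML (yellow), and HL (red). Bars are standard errors from limma and filled points passed the call, which 6 mRNAs did upward in every population on the left and all 8 did downward on the right.

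HL was compared with ML at each timepoint to ask how the mRNAs differed in cells that received more light each day. At +10, *HLA3*, *LCI1*, *CCP1*, and *CCP2* were higher in HL, which is 4 of the 8 mRNAs. In that comparison, 3.68% of all genes tested were called in either direction, with 473 genes higher. The median log2 fold change of the 8 mRNAs at +10 was 0.82, against −0.04 for all genes. *HLA3* had FPKM of 538, 489, and 473 in HL, against 212, 229, and 292 in ML, a 2.04-fold difference of means (log2 fold change 1.04 ± 0.23, adjusted p = 0.000603). *LCI1* had FPKM of 70.0, 71.2, and 56.8 in HL, against 15.2, 24.1, and 31.2 in ML, which is 2.81-fold (log2 fold change 1.499 ± 0.29, adjusted p = 0.000143). For both mRNAs of the plasma membrane step, every HL library lay above every ML library.

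*CCP1* had FPKM of 206, 213, and 176 in HL at +10, against 61.8, 87.6, and 103 in ML (log2 fold change 1.26 ± 0.26, adjusted p = 0.000326). *CCP2* had FPKM of 209, 231, and 214 in HL, against 88.9, 87.3, and 97.9 in ML (log2 fold change 1.25 ± 0.26, adjusted p = 0.000397). Neither gene had a value in HL within the range of ML. *NAR1B*, the envelope channel, had FPKM of 209, 201, and 179 in HL, against 107, 125, and 163 in ML, groups that did not overlap, but its log2 fold change of 0.59 ± 0.29 was not called (adjusted p = 0.112, 95% interval 0.01 to 1.17). *BST1* had FPKM of 60.6, 58.8, and 61.8 in HL, against 47.8, 42.9, and 32.9 in ML, and a log2 fold change of 0.56 ± 0.12 that passed the threshold on adjusted p (0.000393) but not that on fold change. *BST2* and *BST3* had log2 fold changes of 0.16 ± 0.11 and 0.02 ± 0.09 at +10, with 95% intervals of −0.07 to 0.39 and −0.16 to 0.19. The summed division markers at +10 ranged over 1242 to 1335 FPKM in HL and 1146 to 1351 FPKM in ML, and their part in the result was not tested. The count of 4 calls dropped to 2 when all libraries of replicate number 1 were left out, to 1 without replicate number 2, and to 3 without replicate number 3, and the log2 fold changes of the 4 mRNAs then lay between 0.89 and 1.83.

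At the other timepoints no mRNA of the group was called in HL against ML by limma, although some had an unadjusted p below 0.05. The shares of all genes called follow a stricter rule than that p, so they are no baseline for its counts. At −2, the count at that p was 1 of 8, with 0.507% of all genes called, and at +2 it was 3 of 8, with 5.96% of all genes called. At +6 it was 2 of 8, with 2.01% of all genes called, and at −10 it was 2 of 8, with 1.08% of all genes called. *BST1* at +6 had the smallest adjusted p among them, 6.26e-05, with FPKM of 60.4, 59.9, and 61.9 in HL, against 37.1, 35.5, and 40.8 in ML, and a log2 fold change of 0.67 ± 0.12. *LCI1* at +6 had the largest of these log2 fold changes, 0.75 ± 0.29 (adjusted p = 0.0644), with FPKM of 2439, 2723, and 2378 in HL and 1459, 1581, and 1454 in ML, groups that did not overlap, and with quantile normalization it was called (1.19, adjusted p = 0.00521). At +2 the log2 fold changes pointed both ways, between −0.38 for *BST1* and 0.50 for *CCP1*. *HLA3* at +2 had FPKM of 3487 to 3699.6 in HL and 2546 to 3222 in ML, and its 95% interval of −0.08 to 0.85 on the log2 scale included 0.

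**Figure D3:**
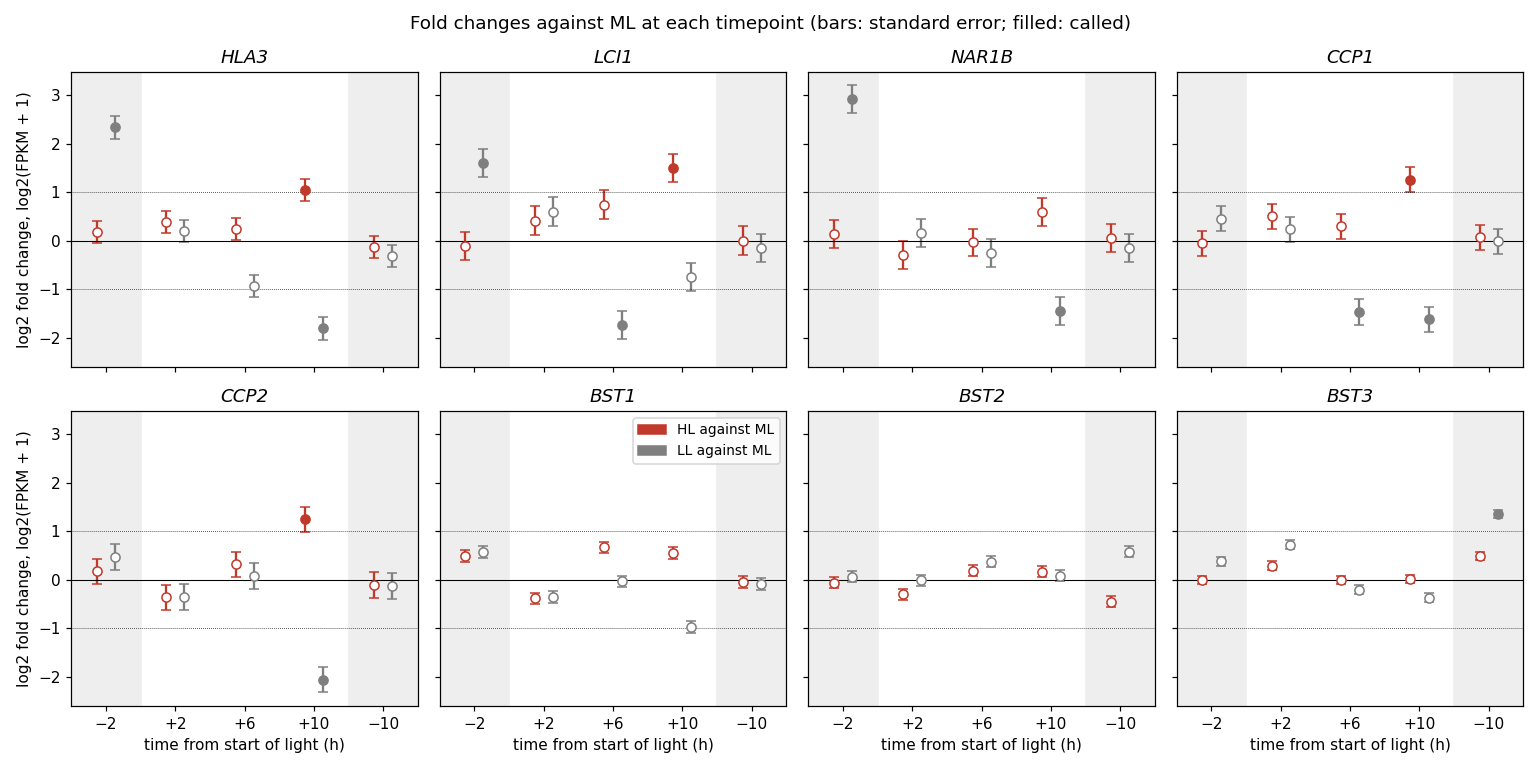
Log2 fold changes of HL against ML (red) and LL against ML (grey) for each mRNA and timepoint, on the scale of log2(FPKM + 1). Bars are standard errors from limma, filled points passed the call, dotted lines mark a log2 fold change of 1 in each direction, and shaded timepoints lie in the dark. The filled points lie above 0 for HL at +10 and below 0 for LL at +6 and +10, and above 0 for LL in the dark.

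LL was compared with ML for the same reason, in cells that received less light. The ML libraries are shared with the HL comparison, so the results of the 2 comparisons are not independent. At +10, *HLA3*, *NAR1B*, *CCP1*, and *CCP2* were lower in LL, which is 4 of 8 mRNAs. Of all genes tested, 4.95% were called in either direction, with 201 genes lower. The median log2 fold change of the 8 mRNAs was −1.21, against −0.05 for all genes. *HLA3* had FPKM of 69.4, 48.4, and 94.97 in LL, against 212, 229, and 292 in ML (log2 fold change −1.81 ± 0.23, adjusted p = 9.24e-08). *CCP2* had FPKM of 21.2, 15.1, and 29.4 in LL, against 88.9, 87.3, and 97.9 in ML, a mean 4.17-fold lower (log2 fold change −2.06 ± 0.26, adjusted p = 1.16e-07). The LL libraries of these genes lay below all ML libraries.

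*CCP1* had FPKM of 26.9, 17.8, and 36.8 in LL at +10, against 61.8, 87.6, and 103 in ML (log2 fold change −1.62 ± 0.26, adjusted p = 6.44e-06). *NAR1B* had FPKM of 44.0, 32.6, and 72.3 in LL, against 107, 125, and 163 in ML (log2 fold change −1.45 ± 0.29, adjusted p = 0.000111), and its call was lost without replicate number 2 (log2 fold change −1.22, adjusted p = 0.0224). For both mRNAs, each LL library lay below each ML library. *BST1* was just outside the call, with FPKM of 24.02, 18.4, and 18.7 in LL, against 47.8, 42.9, and 32.9 in ML (log2 fold change −0.97 ± 0.12, adjusted p = 3.79e-08), and *LCI1* had a log2 fold change of −0.75 ± 0.29 (adjusted p = 0.0359). *BST1* was called without replicate number 3 (−1.07), with a pseudocount of 0.1 (−1.01), and with quantile normalization (−1.02), and without replicate number 1, *LCI1* was (−1.02, adjusted p = 0.00513). The summed division markers were also lower in LL at +10, over 561 to 891 FPKM, against 1146 to 1351 FPKM in ML, and their part in the result was not tested.

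At +6, *LCI1* and *CCP1* were lower in LL, 2 of 8 mRNAs, with 3.88% of all genes called. *LCI1* had FPKM of 414, 518, and 419 in LL, against 1459, 1581, and 1454 in ML (log2 fold change −1.74 ± 0.29, adjusted p = 1.75e-05), and *CCP1* had FPKM of 333, 372, and 319.8 in LL, against 875, 880.3, and 1106 in ML (log2 fold change −1.47 ± 0.26, adjusted p = 4.05e-05). *HLA3*, with FPKM of 1335, 1266, and 1265 in LL and 2489, 2434, and 2483 in ML, had a log2 fold change of −0.94 ± 0.23 and missed the call by its fold change (adjusted p = 0.00176), but was called with quantile normalization (−1.12). *NAR1B* and *CCP2* had log2 fold changes of −0.25 ± 0.29 and 0.08 ± 0.26 at that timepoint. The summed division markers at +6 ranged over 114 to 157 FPKM in LL and 65.1 to 97.5 FPKM in ML, higher in LL, where they were lower at +10, and their part in the result was not tested. At +2, no mRNA of the group was called by limma in LL against ML, where 3 of 8 had an unadjusted p below 0.05 and 7.51% of all genes were called. The smallest adjusted p at +2 was that of *BST3*, 1.67e-08, with FPKM of 129, 128, and 148 in LL, against 86.3, 79.1, and 78.0 in ML, and a log2 fold change of 0.73 ± 0.09.

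At −2, before the light came on, *HLA3*, *LCI1*, and *NAR1B* were higher in LL, 3 of 8 mRNAs, with 2.94% of all genes called. *NAR1B* had FPKM of 104, 37.4, and 27.8 in LL replicates 1, 2, and 3, against 4.70, 3.72, and 8.94 in ML (log2 fold change 2.92 ± 0.29, adjusted p = 1.93e-09). *HLA3* had FPKM of 163, 71.9, and 68.0 in LL, against 16.3, 12.7, and 26.0 in ML (log2 fold change 2.34 ± 0.23, adjusted p = 1.93e-09), and *LCI1* had FPKM of 40.0, 12.3, and 9.26 in LL, against 3.65, 4.57, and 6.70 in ML (log2 fold change 1.60 ± 0.29, adjusted p = 0.000122). The highest value of each of the 3 mRNAs came from LL replicate 1, the library of lowest depth. Without that library, *NAR1B* and *HLA3* were still called, with log2 fold changes of 2.37 and 1.93, and *LCI1* stood just under the fold threshold at 0.999 (adjusted p = 0.00335). When only the LL and ML libraries at −2 were fitted, none of the 3 was called, with adjusted p of 0.0554 (*NAR1B*), 0.0485 (*HLA3*), and 0.172 (*LCI1*). The call of *LCI1* was also lost without replicate number 1 (log2 fold change 0.83) and without replicate number 2 (1.78, adjusted p = 0.0133). *CCP1* and *CCP2*, whose ranges in LL and ML overlapped, had log2 fold changes of 0.45 ± 0.26 and 0.47 ± 0.26 at −2, and of 0.10 and −0.13 without the LL library of lowest depth, so that the sign of *CCP2* rested on that library. *BST1*, *BST2*, and *BST3*, which were not called, had log2 fold changes of 0.58 ± 0.12, 0.06 ± 0.11, and 0.38 ± 0.09, and of 0.43, −0.01, and 0.28 without it. The summed division markers at −2 ranged over 9.32 to 9.51 FPKM in LL and 31.3 to 112 FPKM in ML, and their part in the result was not tested.

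At −10, *BST3* was higher in LL, 1 of 8 mRNAs, with 4.85% of all genes called. Its FPKM was 15.8, 13.2, and 16.0 in LL, against 5.08, 5.19, and 5.41 in ML (log2 fold change 1.36 ± 0.09, adjusted p = 1.58e-14). *BST2*, its direct neighbor, had FPKM of 10.8, 9.88, and 9.14 in LL, against 6.81, 5.98, and 6.12 in ML, and a log2 fold change of 0.58 ± 0.11 that passed the threshold on adjusted p (0.000111) only. In HL the neighbors lay on opposite sides of ML at −10, with FPKM of 8.58, 8.001, and 6.73 for *BST3* (log2 fold change against ML 0.49 ± 0.09) and of 3.72, 5.45, and 3.96 for *BST2* (−0.45 ± 0.11), and neither was called. The other 6 mRNAs had log2 fold changes between −0.31 and −0.02 in LL against ML at −10. The summed division markers at −10 ranged over 90.4 to 199 FPKM in LL, 77.1 to 248 in ML, and 72.7 to 113 in HL. Their part in the result was not tested.

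HL and LL were also compared with each other, with the same libraries as above. At +10, *HLA3*, *LCI1*, *NAR1B*, *CCP1*, *CCP2*, and *BST1* were higher in HL than in LL, 6 of 8 mRNAs. Of all genes, 5.37% were called in either direction, with 326 genes higher. The median log2 fold change of the 8 mRNAs was 2.15, against 0.03 for all genes. *CCP2* differed most, at 218 ± 11.9 FPKM in HL and 21.9 ± 7.18 FPKM in LL (SD, n = 3 libraries each; limma log2 fold change 3.30 ± 0.26, adjusted p = 4.05e-12). The log2 fold changes of the others that were called were 2.88 ± 0.26 (*CCP1*), 2.85 ± 0.23 (*HLA3*), 2.25 ± 0.29 (*LCI1*), 2.04 ± 0.29 (*NAR1B*), and 1.53 ± 0.12 (*BST1*). For all 6 of these mRNAs, every HL library at +10 lay above every ML library, and every ML library above every LL library. The 6 had been called in HL against LL on the same libraries, and the share of all genes with this order was not computed. The summed division markers at +10 ranged over 1242 to 1335 FPKM in HL and 561 to 891 FPKM in LL, and their part was not tested.

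At +6, *HLA3*, *LCI1*, and *CCP1* were higher in HL than in LL, 3 of 8 mRNAs, with 3.06% of all genes called, and their log2 fold changes were 1.18 ± 0.23, 2.48 ± 0.29, and 1.77 ± 0.26, of which that of *HLA3* was not called without replicate number 2 (1.14, adjusted p = 0.0118). *LCI1* had FPKM of 2439, 2723, and 2378 in HL, against 414, 518, and 419 in LL at that timepoint. At +2, no mRNA of the group was called by limma, 2 of 8 had an unadjusted p below 0.05, and 5.15% of all genes were called. At −2, *HLA3*, *LCI1*, and *NAR1B* were lower in HL than in LL, 3 of 8 mRNAs, with 1.91% of all genes called, and log2 fold changes of −2.15 ± 0.23, −1.72 ± 0.29, and −2.78 ± 0.29. The LL library of lowest depth enters here as well, and without it the 3 mRNAs were still called, with log2 fold changes of −1.75, −1.11, and −2.23. In a fit of the HL and LL libraries at −2 alone, none of them was called, with adjusted p of 0.0356 (*HLA3*), 0.158 (*LCI1*), and 0.0426 (*NAR1B*), and the call of *LCI1* was lost without replicate number 2 as well (adjusted p = 0.0107). At −10, *BST2* was lower in HL than in LL, 1 of 8 mRNAs, with 4.76% of all genes called (log2 fold change −1.04 ± 0.11, adjusted p = 4.78e-09), and without replicate number 1 it was not called (−0.89). The summed division markers at +6 ranged over 137 to 150 FPKM in HL and 114 to 157 FPKM in LL. At −2 they ranged over 16.0 to 22.1 FPKM in HL and 9.32 to 9.51 FPKM in LL, and their part was not tested.

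Whether a difference from ML was itself different between timepoints was tested with interaction contrasts in the same model. For LL, the difference from ML at +10 minus that at +2 was called for *HLA3*, *LCI1*, *NAR1B*, *CCP1*, *CCP2*, and *BST3*, 6 of 8 mRNAs, all in the negative direction, with 14.9% of all genes called. *HLA3* had a change of the LL difference of −2.01 ± 0.32 on the log2 scale (adjusted p = 4.77e-06), and *CCP1* one of −1.85 ± 0.37 (adjusted p = 0.000107). *BST3* was called here although neither of its differences at +2 and +10 was called alone, since it was 0.73 at +2 and −0.37 at +10, and the change was −1.09 ± 0.12 (adjusted p = 5.35e-09). Without replicate number 2, *LCI1*, *NAR1B*, *CCP1*, and *CCP2* were no longer called in this contrast, and without replicate number 3, *LCI1* (adjusted p = 0.0321) and *BST3* (−0.98) were lost. The call of *LCI1* was also lost with a pseudocount of 0.1 (adjusted p = 0.0144), median scaling (0.0147), and quantile normalization (0.0144), and that of *BST3* with median scaling (−0.97). For LL, the difference at +2 minus that at −2 was called for *HLA3*, −2.14 ± 0.32, and *NAR1B*, −2.75 ± 0.41, 2 of 8 mRNAs, with 6.87% of all genes called. Without the LL library of lowest depth these values were −1.74 and −2.20.

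For HL, the difference from ML at +10 minus that at +2 was called for *CCP2*, 1 of 8 mRNAs, with 9.83% of all genes called. The difference of *CCP2* was −0.36 at +2 and 1.25 at +10, a change of 1.61 ± 0.37 (adjusted p = 0.000903), which was not called without replicate number 2 (adjusted p = 0.0126) or without replicate number 3 (adjusted p = 0.0234). *HLA3*, *LCI1*, and *CCP1*, which were called in HL at +10 and not at +2, had changes of 0.66 ± 0.32, 1.08 ± 0.41, and 0.76 ± 0.37, with adjusted p of 0.116, 0.0389, and 0.113, so that for these mRNAs the difference between the timepoints did not pass the test. When the library of lowest depth was left out of the model, *LCI1* passed (adjusted p = 0.00371). *BST1* was just under the fold threshold, at 0.94 ± 0.17, and was called without replicate number 1 (1.01) and without replicate number 2 (1.03). The difference at +2 minus that at −2 was called by limma for no mRNA of the group in HL, where 2 of 8 had an unadjusted p below 0.05 and 5.17% of all genes were called.

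*CCP1* and *CCP2* are near-identical genes, and short reads that match both could have been divided between them when the FPKM values were made, so the values of each alone are uncertain, while their sum depends less on that division. The ratio of *CCP1* to *CCP2* was not constant over the day. In HL it was 7.46, 8.05, and 6.55 in the 3 libraries at +2, 7.27, 6.53, and 6.61 at +6, and 0.989, 0.922, and 0.825 at +10. In ML it was 4.51, 4.08, and 3.56 at +2, 6.84, 6.93, and 6.99 at +6, and 0.696, 1.00, and 1.05 at +10, while in LL it was 6.39, 6.66, and 5.17 at +2. The LL libraries had ratios of 2.55, 2.82, and 1.79 at +6 and of 1.27, 1.18, and 1.25 at +10. At +6, the LL libraries lay well below those of the other populations, and at +10 the ratio lay near 1 in all 3 populations, whereas *CCP1* was the higher of the pair in every library at +2 and +6. The *CCP2* mean in HL at +10, 218 FPKM, was above that at +6, 171 FPKM, while the *CCP1* mean at +10, 199 FPKM, was below that at +6, 1163 FPKM.

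Summed over both genes, FPKM at +10 was 415, 445, and 390.2 in HL, against 151, 175, and 201 in ML, a 2.37-fold difference of means (two-sided exact permutation p = 0.1; with 3 libraries per group no smaller value can be reached). In limma, the sum as 1 feature was called as well, with a log2 fold change of 1.25 ± 0.28 (adjusted p = 0.000624). The sum was 48.1, 32.9, and 66.2 in LL at +10, against 151, 175, and 201 in ML, which is 3.57-fold lower (exact permutation p = 0.1, limma log2 fold change −1.86 ± 0.28). At +6 the sum was 464, 503, and 499 in LL, against 1003, 1007, and 1264 in ML, which is 2.23-fold lower (exact permutation p = 0.1, limma log2 fold change −1.15 ± 0.28). The change of the HL difference between +2 and +10, which was called for *CCP2*, was 0.89 ± 0.39 for the sum and was not called (adjusted p = 0.0761).

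**Figure D4:**
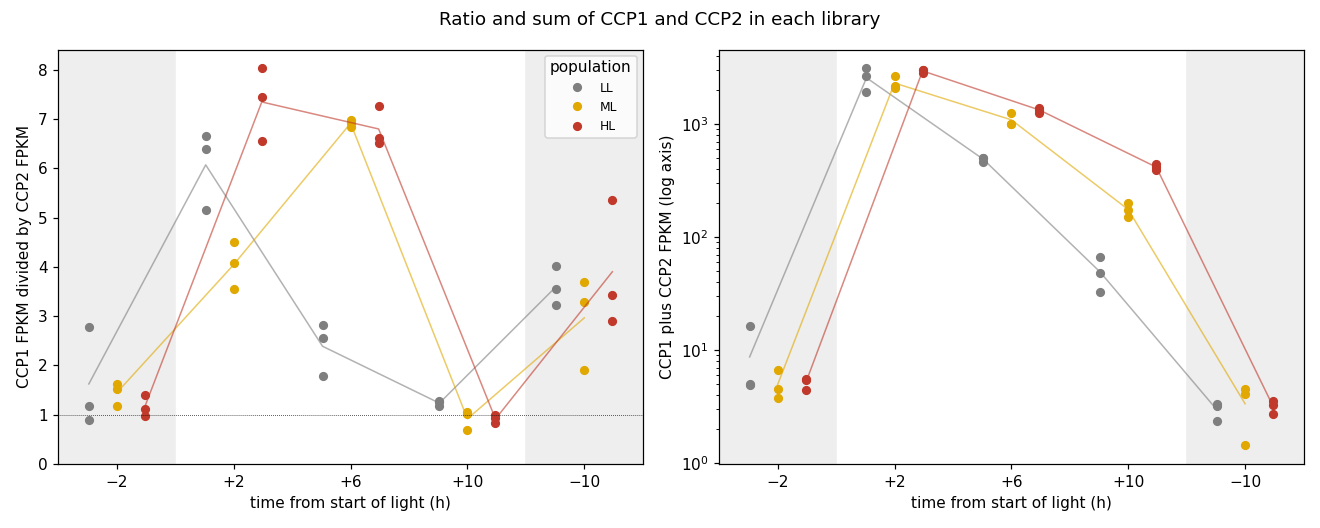
Ratio of *CCP1* to *CCP2* FPKM (left, with a dotted line at 1) and their summed FPKM on a logarithmic axis (right) in every library (points), with group means (lines), for LL (grey), ML (yellow), and HL (red). The ratio lies near 1 at +10 in all populations, and the sum at +10 is highest in HL and lowest in LL.

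To place the 5 mRNAs named for the group in the wider transcriptome, the 3 genes with a symbol whose log2(FPKM + 1) had the highest Pearson's *r* with each were listed, out of 4062 such genes and over the 45 libraries. Libraries of a timepoint share that timepoint, and *r* was also taken after the mean of each timepoint over all populations had been subtracted. *HLA3* and *NAR1B* were each other's closest gene, at 0.995, and at 0.918 after subtraction. *LCI23*, a gene numbered among the low-CO2-induced genes, was among the 3 closest for *HLA3* (0.979), *NAR1B* (0.977), *CCP1* (0.977), and *CCP2* (0.970), and at 0.927, 0.827, 0.810, and 0.683 after subtraction. For *LCI1* the closest were *CAH5* (0.988) and *CAH4* (0.988), which encode mitochondrial carbonic anhydrases, and *NUOAF2* (0.980). The other genes listed were *CPLD11* for *HLA3* (0.984), *CPLD58* for *NAR1B* (0.978), *LPA1L* and *HLA3* for *CCP1* (0.977 and 0.974), and *CPLD68* and *CCP1* for *CCP2* (0.976 and 0.969). After subtraction, *NUOAF2*, *CPLD58*, *LPA1L*, and *CPLD68* were at 0.371, 0.434, 0.471, and 0.388. *CAH5* and *CAH4* were at 0.808 and 0.831 with *LCI1*, and *CPLD11* was at 0.744 with *HLA3*. *CCP1* was at 0.848 with *HLA3* and at 0.803 with *CCP2*. Among the 8 mRNAs themselves, *BST2* and *BST3* were at 0.939, *BST1* was at 0.841 with *BST2* and at 0.810 with *HLA3*, and *BST2* was at 0.401 with *HLA3*. After subtraction these values were 0.441, 0.126, 0.731, and −0.046, so that *BST1* was closer to *HLA3* than to *BST2*, the reverse of the order before it. Within the group, *BST1* was closest to *BST3* before subtraction (0.887, and 0.178 after it) and closest to *CCP2* after subtraction (0.837). Without the LL library of lowest depth, no value before subtraction moved by more than 0.00548 for the listed genes or 0.0332 for pairs of the 8 mRNAs, and none after subtraction by more than 0.183 and 0.0862. Ranked after subtraction, the closest genes were *LCI23* for *HLA3* (0.927), *CCP1* for *LCI1* (0.879), *HLA3* for *NAR1B* (0.918), *LHCSR3A* for *CCP1* (0.917), and *CGL107* for *CCP2* (0.837). For *CCP2*, *BST1* came next in that ranking, also at 0.837. Before subtraction, *CGL107* was at 0.276 and *BST1* at 0.778 with *CCP2*. That ranking was not repeated without the LL library of lowest depth.

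The other listed genes of the CO2 concentrating mechanism comprise carbonic anhydrases, the LCIB family, Rhesus-like channels, regulators, further NAR1 genes, and other numbered low-CO2-induced genes, of which 37 passed the filter on low values. In HL against ML, 6 of the 37 were higher and 0 lower at +10, where 3.68% of all genes were called, and 5 were higher and 2 lower at +2, where the share of all genes was 5.96%. None was called by limma at −2 (0.507% of all genes) or +6 (2.01%), where 7 and 18 of the 37 had an unadjusted p below 0.05, and at −10 (1.08%) 2 were higher. These percentages are of called genes and are no baseline for the counts at an unadjusted p. In LL against ML, 6 of the 37 were higher and 4 lower at +10, against 4.95% of all genes called, and 2 were higher and 8 lower at +6, against 3.88%. At +2, 7 were higher and 1 lower (7.51% of all genes), at −2, 2 were higher (2.94%), and at −10, 4 were higher and 1 lower (4.85%). The LCIB family, whose members act around the pyrenoid or are related to LCIB, had 3 of 4 genes higher in HL at +10, among them both neighbors of the CCP genes, *LCID1* (1.25 ± 0.17) and *LCIE1* (1.14 ± 0.15), and *LCIB1* (1.06 ± 0.13). The remaining gene, *LCIC1*, was just under the fold threshold there (0.99 ± 0.16, limma adjusted p = 1.30e-05). *LCIE1* was lower in LL at +6, at −2.27 ± 0.15, as was its neighbor *CCP1*. At +10 in LL, where *CCP1* and *CCP2* were lower, their neighbors were not called, with −0.31 ± 0.15 for *LCIE1* and −0.09 ± 0.17 for *LCID1*, and *LCID1* was at −0.02 ± 0.17 at +6. *LCIC1*, of the same family, was called higher in LL at +10 (1.11 ± 0.16) and was at −0.18 ± 0.16 at +6. *LCIB1* was not called in LL, at 0.22 ± 0.13 at +10 and 0.59 ± 0.13 at +6. Named by the rule for HL against ML at +2 were *LCI34* (2.31 ± 0.18), *LCI36* (1.64 ± 0.13), *NAR1C* (1.21 ± 0.11), and *LCR1*, a Myb regulator of low-CO2-induced genes (1.40 ± 0.13), which were higher in HL. *CAH2*, a periplasmic carbonic anhydrase (−1.92 ± 0.17), and *RHP1*, a Rhesus-like channel (−1.42 ± 0.08), were lower in HL. At that timepoint, none of the 8 transporter and channel mRNAs was called.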

How the data were processed

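Poly(A) RNA of 45 libraries was sequenced by the authors as short reads. According to the Methods and the submitters' processing notes, the authors aligned the reads with STAR 2.4.0j to the CC-4532 genome (version 6.1) and made strand-specific FPKM values with cuffdiff 2.0.2. The deposited tables hold FPKM per gene and library, and FPKM per gene and group, from which the means used here differed by at most 1.78% for the 8 genes. Groups were taken from the sample labels, and 0 columns were left without a sample. The authors' own comparisons used DESeq2 on counts, which were not analysed here. Depth per library is therefore known only relative to the median library, from 7359 low values of 677 genes, of which 65.4% lay within 0.1 of a whole step. The model on log2(FPKM + 1) was fitted in limma (version 3.58.1, under R version 4.3.3) with a mean-variance trend, and the fit was tested on simulated data. Those data had independent noise around the mean of each gene. They do not cover effects of time, shared cultures, or a library of low depth. Python (3.11.15), scipy (1.17.1), pandas (2.3.3), numpy (2.4.6), and matplotlib (3.10.9) served for the remaining steps.

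The 8 genes and all gene lists were chosen with earlier results of these data known. Other genes were named by rule: the 3 most alike genes of *HLA3*, *LCI1*, *NAR1B*, *CCP1*, and *CCP2*, and, of each list, the 2 called genes with the largest absolute log2 fold change in HL against ML at +2. Named as well was the gene closest to each of these mRNAs after subtraction of the timepoint means. The LCIB family genes named at +10 and +6 were chosen after their values were seen. Replicate numbers were checked for pairing by the correlation of the deviations of same-numbered libraries from their group means, in 21 pairs of groups. Every correlation was above 0.1 only for LL and ML at −10. There, *BST3* was called with the replicate block as well. Alternatives were other pseudocounts, filters, models, scalings, and thresholds, and the omission of libraries. Ratios and correlations without the library of lowest depth were added after seeing the data. Sequences were not used here.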

Additional observations from a re-analysis of the deposited data

Results flagged for a closer look

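The difference of a population from ML changed between timepoints for the following mRNAs, by an interaction contrast in limma. For LL, the difference at +10 minus that at +2 was −2.01 for *HLA3*, −1.35 for *LCI1*, −1.61 for *NAR1B*, −1.85 for *CCP1*, −1.71 for *CCP2*, and −1.09 for *BST3*, on the log2 scale. The LL difference at +2 minus that at −2 was −2.14 for *HLA3* and −2.75 for *NAR1B*, and the library of lowest depth, LL replicate 1 at −2, enters these values. Without that library they were −1.74 and −2.20. For HL, the difference at +10 minus that at +2 was 1.61 for *CCP2*. Groups of 3 libraries are too small to single out a library within a group.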

How the results depend on the processing

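Each of the 200 values of 1 mRNA in 1 comparison kept its sign where it was called, under every alternative run. With the replicate block, the counts of calls were 4 in HL against ML, 10 in LL against ML, 13 in HL against LL, 19 across the start of the light period, 24 across its end, and 9 in the interaction contrasts, the same as without it, and no call changed. None changed with the filter left out, a filter on a mean FPKM of 5, no trend, or culture as a random effect. Culture stood for the libraries of 1 population with the same replicate number. When libraries were left out, the count in HL against ML lay between 1 and 4 (main value 4) and that of the interaction contrasts between 5 and 10 (main value 9). The other counts stayed within 1.5 times. With only the groups of a comparison fitted, 6 calls were lost, those in LL at −2. A pseudocount of 0.1 lost 1 call and gained 1, median scaling lost 2 and gained 1, quantile normalization lost 2 and gained 8, and an adjusted p below 0.05 gained 1. Over all genes, the count called with a pseudocount of 0.1 was up to 2.32 times the main one, and above 1.5 times in 16 of 25 comparisons. With the groups alone it was as low as 0.0419 times, and more than 1.5 times apart in 5 comparisons, as it was in 3 without replicate number 1, 3 without replicate number 2, 1 without replicate number 3, 2 with a mean FPKM of 5, and 1 with quantile normalization. The summed FPKM of *CCP1* and *CCP2* in HL minus ML at +10, 241 in all, lay between 227 and 267 when replicate numbers were left out. The difference in LL minus ML lay between −138 and −119 at +10 and between −653 and −522 at +6. Depth limits the values near or below 1 FPKM at −10 and in LL replicate 1 at −2.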
